A study of Homo sapiens with 6 samples.

Results

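The HSP70 and HSP110 chaperones were followed through ribosome profiling, the sequencing of messenger fragments covered by ribosomes, in the established human melanoma line CHL-1. The 8 genes were taken by name. They are the stress-inducible HSP70 genes HSPA1A, HSPA1B and HSPA6, the constitutive cytosolic HSP70 HSPA8, the mitochondrial HSP70 HSPA9, and the HSP110 genes HSPA4, HSPA4L and HSPH1. They are 8 of 11227 genes with a name in at least 1 of the tables, each represented by the RefSeq transcript with the most depth over the tables. The tested conditions were CHL-1 cells exposed for 20 minutes to 10 mM AZC (the proline analog azetidine-2-carboxylic acid) plus 20 µM MG132, which inhibits the proteasome, and a CHL-1 line in which CRISPR was directed at the small nucleolar RNA genes SNORD50A/B. Untreated parental CHL-1 was the control of both. The labels describe no control-edited line, no cells given a single agent and no vehicle control, and do not say whether the edited line is 1 clone.

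Each condition had 2 libraries, of which 1 was labelled as depleted of ribosomal RNA, and the 6 libraries were deposited as 3 tables, 1 per condition, without columns for single libraries. No spread between replicates could therefore be computed, every difference given here is between single tables, and no p-value is given. The depth summed over all transcripts, in units of 1000000, was 367.3 for AZC + MG132, 586.5 for CRISPR and 473.7 for parental cells. Coding bins held 78.1%, 84.8% and 85.6% of it in the same order. SOX10, a transcription factor of the neural crest and melanocyte lineage, stood at 322.5 in the AZC + MG132, 352.5 in the CRISPR and 395.7 in the parental table, in normalised depth (depth per 1000000 of the table's total). The 8 melanocyte lineage markers summed to between 379.9 and 439.02 per table, with TYR and TYRP1 listed in none of the tables and PMEL and MLANA under the depth minimum. SOX10 made up most of that sum. S100B passed the minimum in 3 tables, DCT in 2 and MITF in 1. Of 6 markers of other cell types KRT10 alone passed the minimum, and their sum stayed between 8.28 and 11.6.

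HSP70 proteins bind exposed hydrophobic stretches of unfolded and newly made proteins and release them in a cycle driven by ATP. J proteins (HSP40) deliver clients and start ATP hydrolysis. HSP110 proteins, distant relatives of HSP70, serve as nucleotide exchange factors that let HSP70 release ADP and its client. In unstressed cells HSPA8 carries most of the cytosolic work and HSPA9 pulls proteins into mitochondria and folds them there. When misfolded proteins gather, the transcription factor HSF1 binds heat shock elements, which are inverted repeats of the unit nGAAn, and HSPA1A, HSPA1B and HSPA6 are among its best known targets. AZC can be built into new proteins in place of proline and impair their folding, and MG132 blocks the removal of such proteins.

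Since the inducible genes are textbook targets of HSF1, the 250 bases upstream of each transcript start were searched on both strands for GAANNTTCNNGAA or TTCNNGAANNTTC (3 units) and for GAANNTTC or TTCNNGAA (2 units, also found inside each 3-unit match). The RefSeq promoter table (GRCh38.p14) held entries for all 8 genes. A 3-unit match lay in 0.441% of all promoter entries and a 2-unit match in 11.6%. HSPA6 had 1 match of 3 units and HSPA8 had 2. HSPA1A and HSPA1B had 1 match of 2 units each, and 1 of 3 entries of HSPA4L had a match of 2 units. These letters were not in the window of HSPA4, HSPA9 and HSPH1, which says nothing of sites elsewhere or of looser matches. A match of letters is a description of the sequence and does not show binding. The windows of the genes that the results turn on are shown 5′ to 3′ on the gene's strand, with the match in capitals. They are chr6:31815426-31815455 (plus strand) for HSPA1A, chr6:31827622-31827651 (plus) for HSPA1B, chr1:161524458-161524487 (plus) for HSPA6, and chr11:123062345-123062374 and chr11:123062170-123062199 (both minus) for HSPA8.
HSPA1A: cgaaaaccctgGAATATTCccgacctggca
HSPA1B: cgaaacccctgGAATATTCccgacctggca
HSPA6: cggaaaggTTCGCGAAAGTTCgcggcggcg
HSPA8, far match: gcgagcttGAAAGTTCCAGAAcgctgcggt
HSPA8, near match: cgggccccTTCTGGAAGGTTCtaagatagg

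The first comparison asked how ribosome occupancy of the chaperone messengers differed after 20 minutes of AZC with MG132. HSPA1A and HSPA1B were about 4-fold higher in the AZC + MG132 table, and HSPA6 was covered over most of its coding sequence there and barely covered in the parental table. The constitutive HSPA8 was higher by a smaller step, while HSPA9, HSPA4 and HSPA4L were somewhat lower and HSPH1 slightly higher. Levels are given as normalised depth summed over the messenger. They are not compared between genes, because depth grows with the length of a messenger and coding lengths were not used here. Footprint depth follows both the amount of a messenger and the ribosomes on each copy, which cannot be told apart in these tables.

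HSPA1A, an inducible cytosolic HSP70, stood at 594.6 under AZC + MG132, 130.5 in the CRISPR line and 162.1 in parental cells. HSPA1B, its near-identical neighbour, stood at 711.6 in the AZC + MG132, 156.8 in the CRISPR and 183.4 in the parental table. For both genes the AZC + MG132 table was far above the others, which lay close together. The log2 ratio of AZC + MG132 over parental was 1.88 for HSPA1A (3.67-fold) and 1.96 for HSPA1B (3.88-fold). Of 7279 genes above the depth minimum in both tables, 7 had a higher ratio than HSPA1A and 5 a higher ratio than HSPA1B. The minimum is the lower quartile of the summed depth of all transcripts in a table.

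HSPA6, a strictly inducible HSP70 found in human and absent from mouse, had a level of 25.4 in the AZC + MG132 table and 2.12 in the parental table, and it had no row in the CRISPR table. Its parental depth lay under the minimum, so it was not counted in the comparison. Without the minimum the ratio was 11.98-fold over all bins and 10.3-fold over coding bins. Depth lay on 76.5% of its coding bins under AZC + MG132, against 20.5% in parental cells. The parental value thus rests on few footprints, and the size of the HSPA6 ratio is less certain than those of HSPA1A and HSPA1B. HSPA6 resembles HSPA1A in sequence, and whether shared reads entered its row was not tested.

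HSPA8, the constitutive HSC70 that folds new proteins and uncoats clathrin vesicles, stood at 3814 in the AZC + MG132, 2487 in the CRISPR and 2549 in the parental table. Its ratio of AZC + MG132 over parental was 1.496-fold (log2 0.58), above that of 93.1% of the genes compared and short of 2-fold. HSPA9 (mortalin), the import motor and folding chaperone of the mitochondrial matrix, was at 343.6 in the AZC + MG132, 522.3 in the CRISPR and 439.7 in the parental table, a log2 ratio of -0.36 for the treated cells. The cytosolic and the mitochondrial constitutive HSP70 thus lay on opposite sides of the parental level, neither by 2-fold.

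The HSP110 genes differed less. HSPH1 (HSP105), the heat-inducible HSP110, was at 317.7 in the AZC + MG132, 299.2 in the CRISPR and 278.8 in the parental table. HSPA4 (APG-2), the abundant constitutive HSP110, was at 243.8 in the AZC + MG132, 282.6 in the CRISPR and 282.97 in the parental table. HSPA4L (APG-1), known from testis, was at 26.5 in the AZC + MG132, 46.9 in the CRISPR and 31.4 in the parental table. Their log2 ratios for the treated cells were 0.19, -0.22 and -0.25, all inside the central mass of genes, since 73.1%, 34.1% and 31.3% of genes had a lower ratio.

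Counted together, 2 of the 7 chaperone genes compared were higher by 2-fold or more under AZC + MG132, against 0.866% of all genes, and 0 of 7 were lower by that factor, against 2.39%. The pair that passed has equal depth in most coding bins and counts as little more than 1 measurement. The median log2 ratio was 0.19 over the 7 members and -0.05 over all genes. The balance of the background depended on scaling, because 26.6% of the genes past 2-fold were higher with total-depth scaling, 39.3% when scaled to the median ratio and 44.7% when the most abundant 1% of rows was left out of the total. Counting HSPA1A alone for the pair, the chaperones held 0.537% of all depth in the AZC + MG132, 0.377% in the CRISPR and 0.375% in the parental table. HSPA8 made up 71.1%, 65.99% and 68.04% of that depth in the same order, shares that also depend on the lengths of the messengers. The total of a table sums every listed transcript, including several of the same gene, while each chaperone is given by 1 transcript.

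**Figure D1:**
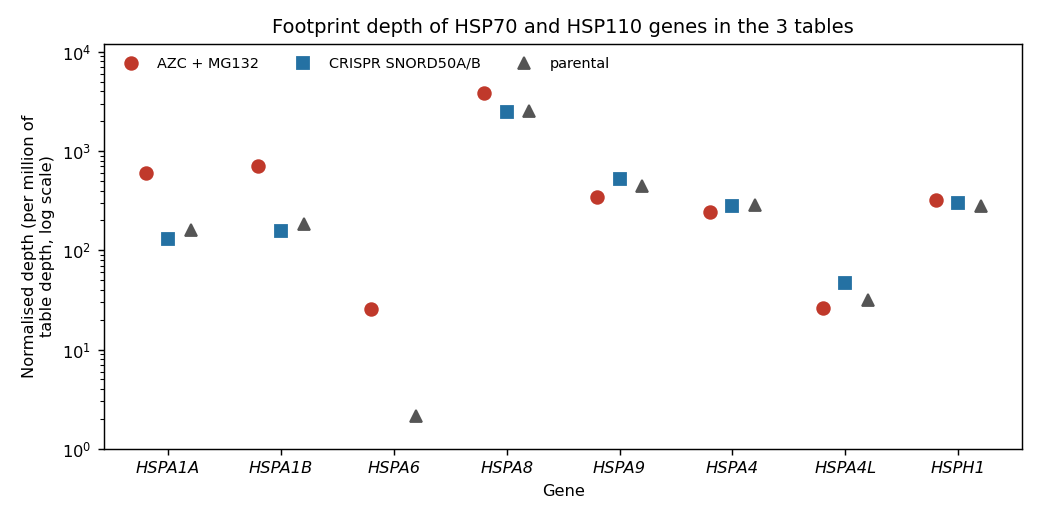
Normalised depth (depth per 1000000 of the table's total, log scale) of the 8 genes in the AZC + MG132 table (circles), the CRISPR SNORD50A/B table (squares) and the parental table (triangles), 1 table per condition and no error bars. HSPA1A and HSPA1B stand at 594.6 and 711.6 in the AZC + MG132 table, well above their other points; HSPA6 has no CRISPR point because that table lists no row for it.

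**Figure D2:**
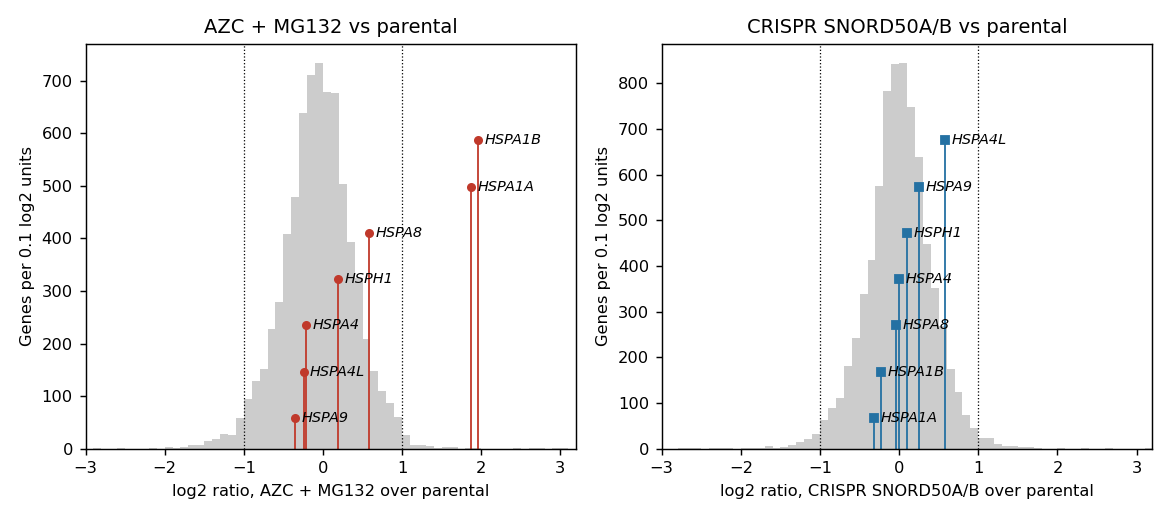
Log2 ratio of normalised depth over parental for AZC + MG132 (left, 7279 genes) and CRISPR SNORD50A/B (right, 7542 genes), as a histogram of all genes compared with the chaperone genes marked by stems. Stem heights only separate the names and carry no value, and dotted lines mark 2-fold; HSPA1A and HSPA1B at 1.88 and 1.96 lie beyond the line on the left, and no chaperone gene does on the right.

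HSPA1A and HSPA1B are close copies, and their rows were compared bin by bin (each coding sequence is cut into 200 bins) to see how far they are separate measurements. Depth was equal within the rounding error of the deposited values in 87.5% of coding bins under AZC + MG132, 90.5% in the CRISPR line and 89% in parental cells. The other 25 bins, unequal in at least 1 table, covered the first 4% of the coding sequence, a stretch from 87% to 90.5% and the part from 95% to the stop. In the shared bins the level was 516.7 under AZC + MG132 and 149.5 in parental cells, a ratio of 3.46-fold that cannot be assigned to either gene.

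In some of the bins that differ the copies were still nearly equal, so these bins separate the genes only in part. Over all bins that differ HSPA1A stood at 50.03 in the AZC + MG132, 10.7 in the CRISPR and 11.1 in the parental table. That is 4.53-fold higher in the treated cells. HSPA1B stood at 97.4 in the AZC + MG132, 26.8 in the CRISPR and 22.6 in the parental table, 4.30-fold higher. Both rows were therefore above 2-fold in these bins, which does not settle the ratio of each copy alone. In the 5′ UTR HSPA1A had 27.8 in the AZC + MG132, 2.73 in the CRISPR and 1.55 in the parental table, and HSPA1B had 84.04, 9.54 and 9.78 in that order. The 3′ UTR of HSPA1B held 13.2 in the AZC + MG132, 3.37 in the CRISPR and 1.45 in the parental table, while HSPA1A had no depth in its 3′ UTR bins in any table.

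**Figure D3:**
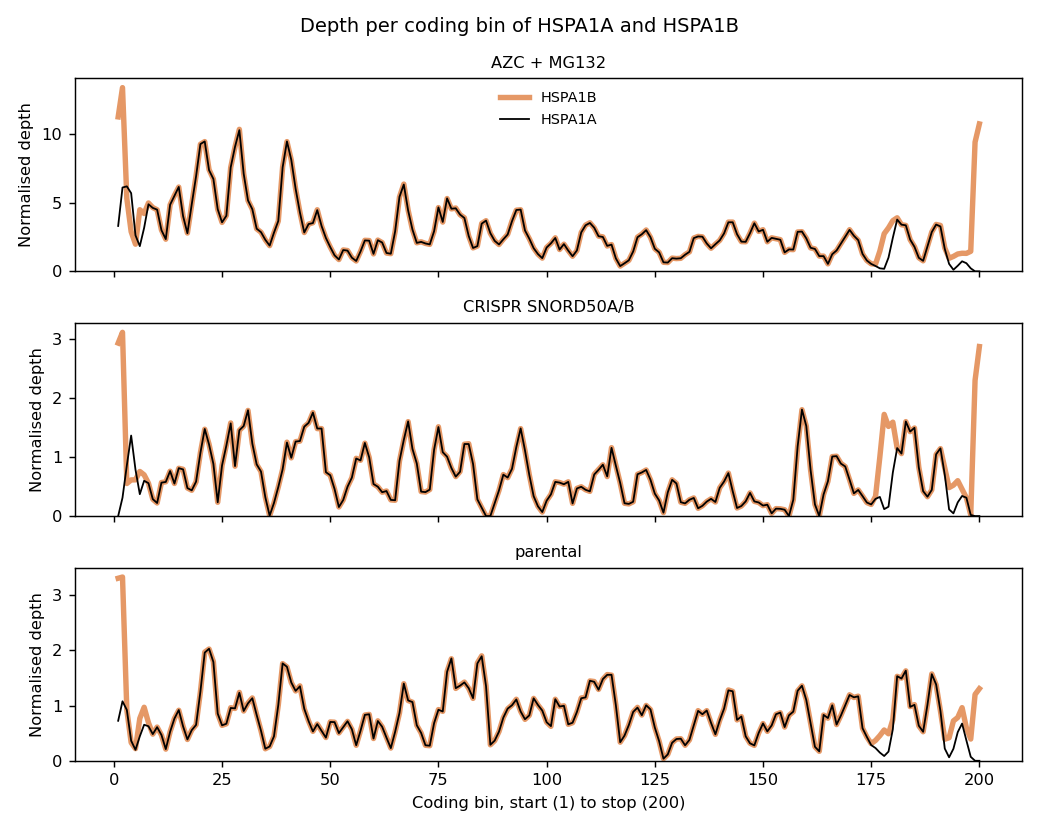
Normalised depth per coding bin, from start (1) to stop (200), of HSPA1B (thick line) and HSPA1A (thin line) in the AZC + MG132, CRISPR SNORD50A/B and parental tables; vertical scales differ between panels. The lines coincide over most bins and part in the first 4% of the coding sequence, from 87% to 90.5% and from 95% on.

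The position of footprints along the coding sequence was examined next. The treated cells carried more of their depth near the start on HSPA1A, HSPA1B, HSPA8 and HSPA9, while HSPA4 and HSPH1 stayed near their parental values. The 5′ share divides the mean depth in the first 20 coding bins by the mean over all 200. The 5′ shift is how far 1 table's share lies above another's, as a log2 ratio. HSPA1A had a 5′ share of 1.64 in the AZC + MG132, 0.94 in the CRISPR and 0.78 in the parental table, and HSPA1B had 1.75, 1.18 and 1.04. HSPA8 had 1.15 in the AZC + MG132, 0.72 in the CRISPR and 0.54 in the parental table. HSPA9 had 1.52, 0.79 and 0.80 in the same order.

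The 5′ share was highest in the AZC + MG132 table for these 4 genes and also for the HSP110 genes. The 5′ shifts were 1.0805 for HSPA1A, 0.75 for HSPA1B, 1.09 for HSPA8 and 0.92 for HSPA9. The HSP110 genes were split. HSPA4L had 5′ shares of 1.27 in the AZC + MG132, 0.98 in the CRISPR and 0.88 in the parental table, a shift of 0.53. HSPA4 had 0.80, 0.64 and 0.76, and HSPH1 had 0.91, 0.72 and 0.85, with shifts of 0.07 and 0.10 for the treated cells. The median shift of all genes was 0.60. Of genes with depth in the first 20 coding bins of both tables, 79.7% had a shift above 0, and so did 7 of 7 chaperone genes, a count read against that background. It takes HSPA1A and HSPA1B as separate genes, although they share most coding bins. HSPA8 and HSPA1A had larger shifts than 76.9% and 76.5% of genes, and HSPA4 and HSPH1 larger than only 22.5% and 23.8%.

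**Figure D4:**
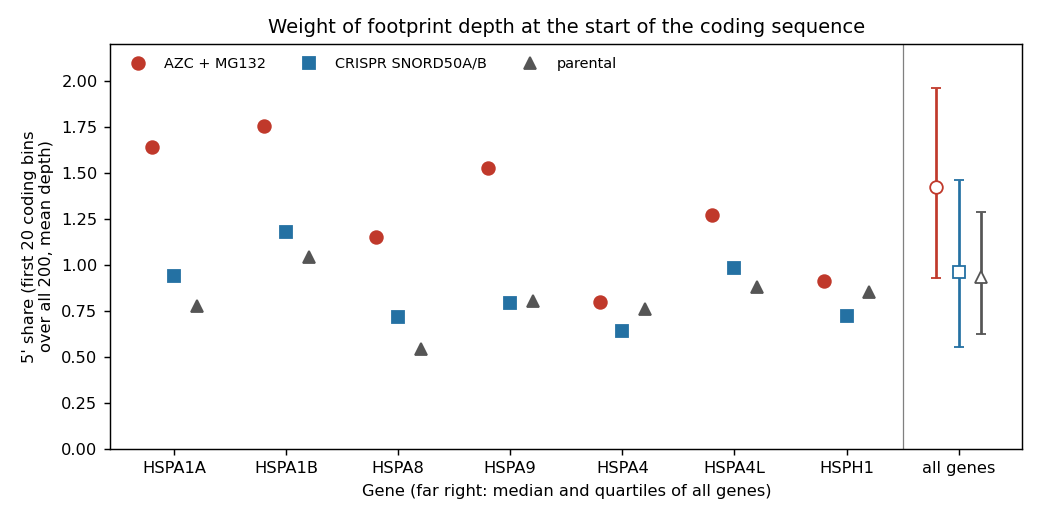
The 5′ share (mean depth in the first 20 coding bins divided by the mean over all 200) of 7 chaperone genes in the AZC + MG132 (circles), CRISPR SNORD50A/B (squares) and parental (triangles) tables, with the median and quartiles of 7075 genes at the far right as open symbols and bars. The circles of HSPA1A, HSPA1B, HSPA8 and HSPA9 stand clear of the other points, and those of HSPA4 and HSPH1 lie at 0.80 and 0.91 near the parental values of 0.76 and 0.85.

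Read in 10 windows of 20 bins, the ratio for HSPA1A was largest near the start. In the first window its level was 92.9 in the AZC + MG132, 11.97 in the CRISPR and 12.4 in the parental table, 7.47-fold higher in the treated cells. In the last window it was 32.1, 12.7 and 14.8 in that order, 2.17-fold higher. No window in the row of HSPA1A fell under 1.88-fold, so the higher depth was not confined to the start. Most windows, including the lowest, lie in bins shared with HSPA1B, so this cannot be assigned to either gene. The first window of HSPA1A held 2.90 times the depth of the last in the AZC + MG132 table, against 0.84 times in the parental table. HSPA1B sloped less, from 5.997-fold in its first window to 2.95-fold in its last. Its first window held 1.88 times the depth of its last under AZC + MG132, against 0.92 times in parental cells. In coding bin 200 HSPA1A had no depth in any table. HSPA1B had 10.8 there in the AZC + MG132, 2.87 in the CRISPR and 1.30 in the parental table.

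HSPA8 sloped in the same direction from a lower base. Its first window was at 388.9 in the AZC + MG132, 159.01 in the CRISPR and 120.8 in the parental table, 3.22-fold higher, and its last at 292.97, 283.2 and 271.96, which is 1.077-fold. The 1.496-fold difference of HSPA8 was thus larger in the first part of the coding sequence, with log2 ratios of 0.91 over the first and 0.22 over the last 100 coding bins. How much larger depended on scaling, since with each part scaled to the depth of all transcripts in the same bins these ratios were 0.84 and 0.57. The ratio of HSPA9 also declined along its length. It was 1.44-fold higher in the first window (50.1 in the AZC + MG132 against 34.8 in the parental table) and 0.56-fold in the last (29.2 against 52.1). Its log2 ratio was 0.0043 over the first and -0.79 over the last 100 coding bins. Scaled to all transcripts in the same bins they were -0.06 and -0.44, so HSPA9 was lower mainly in the later part under both scalings, while its first part turned sign.

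All genes together sloped in the same way, with a median ratio of 1.37-fold in the first window, 0.82-fold in the fifth and 0.75-fold in the last. Against that slope HSPA4 and HSPH1 were flatter. HSPA4 was at 0.86-fold in its first and 1.12-fold in its last window. HSPH1 was at 1.19-fold in the first, 0.94-fold in the last and highest, at 1.54-fold, in the seventh, where it had 45.1 in the AZC + MG132, 32.3 in the CRISPR and 29.2 in the parental table. The single highest coding bin of HSPH1 was the same bin in all 3 tables. HSPA6 had depth in 10 of 10 windows in the AZC + MG132 table and in 6 of 10 in the parental table. Its level per window in the treated cells was between 1.084 and 4.81, and its last window was its second highest.

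**Figure D5:**
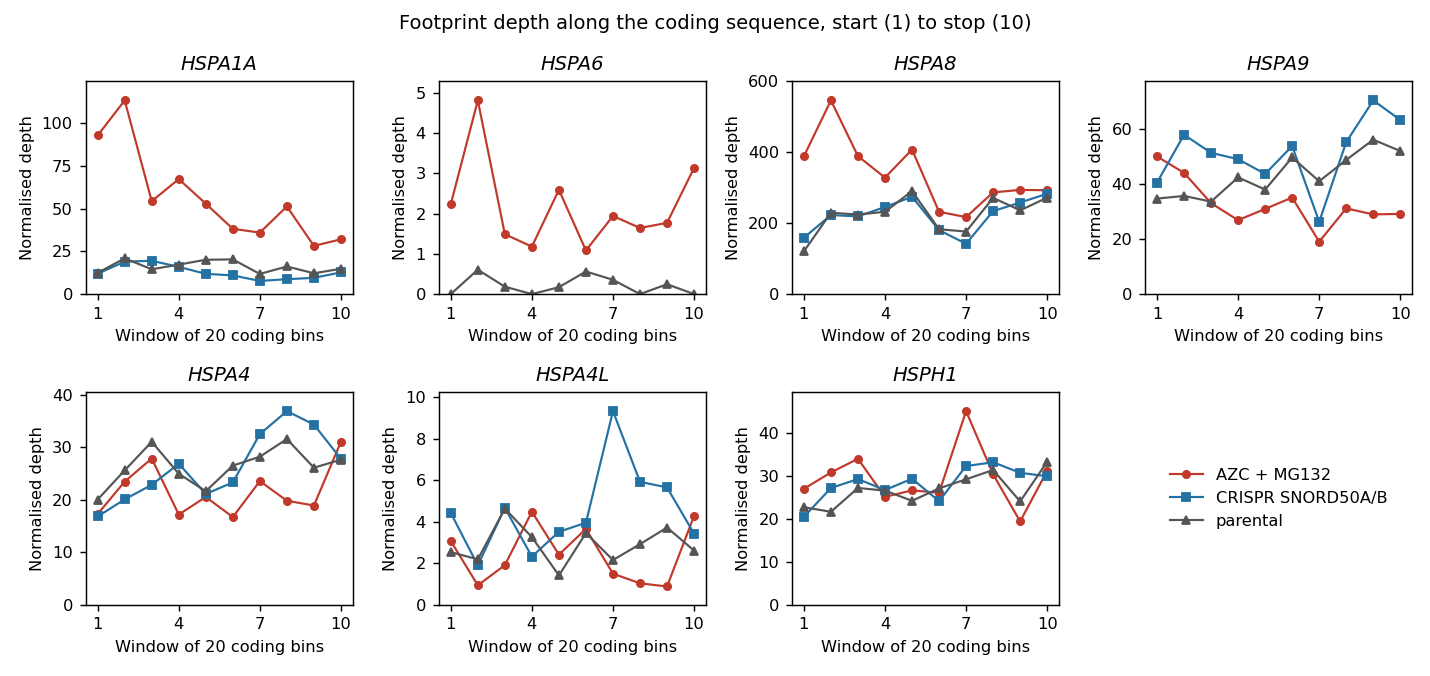
Normalised depth in 10 consecutive windows of 20 coding bins, from start (1) to stop (10), for 7 chaperone genes in the AZC + MG132 (circles), CRISPR SNORD50A/B (squares) and parental (triangles) tables; vertical scales differ and HSPA1B, which shares most bins with HSPA1A, is not drawn. The curves of HSPA1A and HSPA8 for AZC + MG132 lie highest in the first windows, and that of HSPA9 drops below the parental curve from the third window on.

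The half-depth point, the position in the coding sequence at which the cumulative depth reaches 50%, gave a second view. For HSPA1A it lay at 33.6% of the coding sequence in the AZC + MG132, 38.4% in the CRISPR and 47.2% in the parental table. For HSPA8 it lay at 41.03%, 49.4% and 51.7%, and for HSPA9 at 43.3%, 53.2% and 55.6%. HSPH1 was at 52.5%, 55.7% and 55.2%. The count here takes HSPA1A and HSPA1B as separate genes, although they share most coding bins. In the treated cells 7 of 7 chaperone genes had the point nearer the start than in the parental table, against 76.7% of all genes. The distance was over 10 percentage points for HSPA1A, HSPA1B, HSPA8 and HSPA9, and under 3 for HSPA4 and HSPH1.

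Outside the coding sequence, the 5′ UTR depth of HSPA1A was 4.91% of its coding depth in the AZC + MG132, 2.14% in the CRISPR and 0.966% in the parental table. HSPA9 had 3.84%, 1.30% and 0.983%, and HSPA4 had 12.1%, 7.21% and 7.12%. The share was highest in the treated cells for HSPA1A, HSPA1B, HSPA9, HSPA4, HSPA4L and HSPH1. The median of all genes was likewise higher there, at 11.6% in the AZC + MG132, 6.37% in the CRISPR and 5.87% in the parental table. HSPA8 had no depth in its 5′ UTR bins or its first 6 coding bins in any table. Its 5′ shares are therefore low by construction in every table. Over the first 20 coding bins with depth they were 1.503 in the AZC + MG132, 0.97 in the CRISPR and 0.80 in the parental table. The 3′ UTR of HSPA8 held 12.7% of coding depth in the AZC + MG132, 12.03% in the CRISPR and 13.9% in the parental table. The medians of all genes for the 3′ UTR were 2.36%, 1.58% and 1.49% in the same order.

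The second comparison asked how the line edited at SNORD50A/B differed from the parental line. The chaperone levels lay close to the parental ones, with HSPA1A and HSPA1B slightly lower and HSPA4L and HSPA9 higher in the CRISPR table. Of 7 genes compared, 0 were 2-fold or more higher, against 1.1% of 7542 genes, and 0 were 2-fold or more lower, against 1.3%. The log2 ratio of CRISPR over parental was -0.31 for HSPA1A, -0.23 for HSPA1B, -0.04 for HSPA8 and 0.25 for HSPA9. Among the HSP110 genes it was 0.10 for HSPH1, -0.0017 for HSPA4 and 0.58 for HSPA4L. The median over the 7 genes was -0.0017 and over all genes 0.0041. The signs for HSPA4 and HSPA8 changed under other ways of scaling or summing the depth.

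HSPA4L had the largest difference among these, above 92.6% of genes. It came mainly from the later part of the messenger, with a log2 ratio of 0.26 over the first and 0.93 over the last 100 coding bins. In its seventh window it stood at 9.33 in the CRISPR and 2.16 in the parental table, 4.32-fold higher, while in the second it was 0.87-fold. The log2 depth over the coding bins of HSPA4L correlated at only 0.069 between these tables, so the place of the difference is uncertain. Depth lay on 84% of the coding bins of HSPA4L in the CRISPR and 90.5% in the parental table, where the medians of all genes were 69% and 90.5%. HSPA1A ran the other way, at -0.12 over the first and -0.60 over the last 100 coding bins. The bins that differ between the copies gave HSPA1A a ratio of 0.97-fold and HSPA1B a ratio of 1.19-fold, and the shared bins 0.78-fold. The lower levels of HSPA1A and HSPA1B in the edited line thus rest mainly on bins that cannot be assigned to either copy.

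By 5′ share the edited line was nearer to the parental line than the treated cells were for HSPA1A, HSPA1B, HSPA8, HSPA9 and HSPA4L, and farther from it for HSPA4 and HSPH1. By half-depth point HSPA4L was instead farther and HSPH1 nearer. The 5′ shifts of the edited line were 0.27 for HSPA1A, 0.18 for HSPA1B, 0.41 for HSPA8, -0.02 for HSPA9, -0.25 for HSPA4, 0.16 for HSPA4L and -0.23 for HSPH1. Of these 4 of 7 were above 0, against 56% of all genes. HSPA1A and HSPA1B, which share most coding bins, are counted apart here. The signs for HSPA4, HSPA4L, HSPA9 and HSPH1 turned when fewer or more bins at the start were used. Counted in the same way, the half-depth point was nearer the start in 4 of 7 genes, against 51.1% of all genes. For HSPA4L it moved toward the stop, to 61.2% of the coding sequence in the CRISPR table against 51.5% in the parental table.

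The shape of the depth along the coding sequence was repeated most closely for HSPA8. Over its 200 coding bins the log2 depth correlated at r = 0.97 between the AZC + MG132 and parental tables and at 0.99 between the CRISPR and parental tables. The next highest were HSPA1A at 0.79 for AZC + MG132 and HSPA9 at 0.63 for CRISPR. HSPA4L was at 0.098 and 0.069 and HSPA6 at 0.027 for AZC + MG132, in rows with many bins near 0. These values are across bins of a single gene, where neighbouring bins share reads, and both comparisons share the parental table. Bins without depth in every table, such as the first 6 of HSPA8, raise r. HSPA8 also had the most depth of these genes, so its rank may not rest on shape alone. The correlations serve as descriptions only.

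The partners of HSP70 were read from 4 lists. J proteins, which activate HSP70, had 2 of 18 compared genes higher by 2-fold or more under AZC + MG132 and 0 lower by as much, with a median log2 ratio of 0.06. Of all genes compared 0.866% were higher and 2.39% lower by that factor, which is the background for each of the 4 lists. The J proteins past 2-fold were DNAJB1, the main cytosolic J protein of the stress response, and DNAJB4. DNAJB1 stood at 218.8 in the AZC + MG132, 85.2 in the CRISPR and 70.7 in the parental table (log2 ratio 1.63). DNAJB4 stood at 28.5, 22.9 and 9.69 in that order (1.56), and its parental level lay near the depth minimum. The abundant DNAJA1 stood at 0.18 and DNAJB11, a J protein of the endoplasmic reticulum, at -0.26. DNAJB1 thus stood beside HSPA1A and HSPA1B past 2-fold, and most other J proteins did not.

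Exchange factors and regulators had 0 of 16 genes past 2-fold in the treated cells and a median of -0.28. Among them ST13 (HIP), which slows release of ADP, was at -0.56 and STIP1 (HOP), the adaptor between HSP70 and HSP90, at -0.0004. The other HSP70 family genes had 0 of 4 past 2-fold and a median of -0.04. HSPA5 (BiP), the HSP70 of the endoplasmic reticulum, was at 2258 in the AZC + MG132, 1153 in the CRISPR and 1429 in the parental table (log2 ratio 0.66), and its HSP110-like partner HYOU1 was at -0.06. A list of other chaperones and ubiquitin genes, drawn up as responsive to HSF1, had 0 of 12 past 2-fold and a median of -0.04. On it HSP90AA1 was at 0.24 and HSP90AB1 at -0.06. Among genes above the minimum in both tables, these 3 lists thus held none past 2-fold. HSPA2, an HSP70 known from testis, was under the minimum in the parental table and not counted, with 21.1 in the AZC + MG132, 1.26 in the CRISPR and 5.47 in the parental table; it was named after its values were seen.

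In the edited line J proteins had 2 of 19 genes 2-fold or more higher and 0 lower, against 1.1% and 1.3% of all genes. They were DNAJB2 at a log2 ratio of 1.48 (20.6 in the CRISPR against 7.39 in the parental table) and DNAJB4 at 1.24. The parental levels of both DNAJB2 and DNAJB4 lay near the depth minimum. Exchange factors and regulators had 0 of 16 past 2-fold, with a median of -0.12, and the other HSP70 family genes 0 of 5, also with a median of -0.12. Of 12 genes on the list of other chaperones and ubiquitin 1 was past 2-fold, CRYAB, a small heat shock protein, at -2.80 (7.89 in the CRISPR against 54.96 in the parental table). The CRISPR level of CRYAB lay near the depth minimum. Both comparisons share the parental table, so a low parental value such as that of DNAJB4 enters both of its ratios.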

How the data were processed

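Ribosome footprints were sequenced per the labels from 6 libraries of CHL-1 cells lysed with cycloheximide. The submitters' processing notes name Bowtie2, TopHat2 and hg19. The sources used here do not give how the libraries of a group were combined. The authors deposited 3 tables of log2(x + 1) values with 2 decimals, in 400 bins per RefSeq transcript (100 for the 5′ UTR, 200 coding, 100 for the 3′ UTR, as read from the values). Values were converted back to depth x. In coding bins x also held the deposited value of the row above. After its removal 100% of the coding bins with a log2 value under 4 came out whole, within rounding, against 4.92% to 5.65% with a random row removed. Remainders under 0.25 were set to 0. The removed part was 3.42% to 5.31% of coding depth.

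Each gene was represented by the NM transcript with most depth, named through the RefSeq gene table of GRCh38.p14, which left 211 to 237 transcripts per table without a name. Depth was summed over 400 bins and scaled to 1000000 per table. Log2 ratios used a pseudocount of 0.5 on summed depth and genes above the lower quartile of row depth in both tables (2614 in AZC + MG132, 3697 in CRISPR, 3187 in parental). Without replicate columns no test was made, 2-fold is a limit of size, and depth counts bases, so no counting interval was computed. The steps were tested on simulated tables. Python 3.11.15, numpy 2.4.6 and matplotlib 3.10.9 were used.

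The members, lists and measures were chosen with earlier results of these data known. Named from the lists were genes past 2-fold in either comparison and the 2 of highest mean level per list. Most alike genes were the 5 with the smallest Euclidean distance over both log2 ratios, taken from genes whose mean level exceeded the median; 1 gene that this rule names is not reported here. Motifs were searched in RefSeq promoter sequences. Alternatives changed the minimum, pseudocount, scaling, bins and removal of the row above. A 5′ share for HSPA8 over its first 20 bins with depth was added after seeing the data.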

Additional observations from a re-analysis of the deposited data

How the results depend on the processing

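No paired analysis was possible because each condition has 1 table, and for the same reason no replicate could be left out. Of the alternatives tried on 32 results, 12 moved a share of genes or a 5′ shift past the limit set for a change and 7 turned the sign of a 5′ shift. The log2 ratio of each of the 7 chaperone genes compared stayed on its side of 2-fold in both comparisons, although the sign of small ratios turned for HSPA4 in both and for HSPA8 in CRISPR. In the ranges below, the first and last 100 coding bins are scaled to all transcripts in the same bins. For AZC + MG132 the ratio lay between 1.66 and 2.09 for HSPA1A, 1.78 and 2.06 for HSPA1B, 0.57 and 0.84 for HSPA8, -0.44 and -0.06 for HSPA9, and -0.28 and 0.0045 for HSPA4. For CRISPR it lay between -0.20 and 0.18 for HSPA4 and between -0.05 and 0.02 for HSPA8, and between 0.25 and 0.97 for HSPA4L.

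The 5′ shift depended on the number of bins. With the first 10 coding bins it was -0.12 for HSPA4 and 1.47 for HSPA4L in AZC + MG132 (0.021 for HSPA4L with the first 40), and 0.18 for HSPA4, 0.45 for HSPA9 and 0.40 for HSPH1 in CRISPR. With the first 40 it was, in CRISPR, -0.22 for HSPA4L, 0.24 for HSPA9 and 0.020 for HSPH1. The cause was not tested. The background moved with the minimum. Genes 2-fold or more higher in AZC + MG132 were 0.314% with a minimum 4 times higher, 2.42% with none, 1.33% in coding bins only and 1.44% without the most abundant 1% of rows; lower were 1.005% with the higher minimum and 4.32% with none. In CRISPR 0.259% were higher with the higher minimum, 3.27% with none and 0.619% with values as deposited; lower were 0.576% with the higher minimum and 4.11% with none. Depth limits HSPA6 most.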

Other observations

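The genes whose pair of log2 ratios (AZC + MG132 over parental, CRISPR over parental) lay nearest to that of HSPA1A, of 5588 genes above the median by level, included DUSP1, BRF2, HERPUD1 and KLF10. DUSP1, a phosphatase of MAP kinases, was nearest, at a Euclidean distance of 0.42 with ratios of 1.95 and 0.10. KLF10, a transcription factor, was at a distance of 0.58 with ratios of 1.33 and -0.52. For HSPA8 the nearest were IDI1, RARS2, PSMB6, RPP30 and ZNRD2, at distances of 0.012 to 0.04. The measure uses 2 values per gene from 3 tables.

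A second HSPA8 transcript, NM_153201, was listed beside NM_006597. Its level was 3086 in the AZC + MG132, 1820 in the CRISPR and 1910 in the parental table, with a log2 ratio of 0.69 for AZC + MG132 and -0.07 for CRISPR. The rows of these transcripts are not separate measurements, since bins 51 to 70 of the 3′ UTR held the same level in both in every table. The 3′ UTR depth of HSPA8 was uneven. Its bins 51 to 70 held 63.6% of 3′ UTR depth in the AZC + MG132, 48.9% in the CRISPR and 49.4% in the parental table, at levels of 273.3, 130.7 and 154.1 in that order.

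BAG3, an exchange factor induced by proteasome inhibition, stood at 64.7 in the AZC + MG132, 29.8 in the CRISPR and 38.003 in the parental table, a log2 ratio of 0.77 for the treated cells. The list of exchange factors and regulators had a median of -0.28. On it GRPEL2 stood higher, at 0.92, and BAG1, BAG2, BAG4, BAG5 and BAG6 had negative ratios. BAG3 was named after its values were seen. HSF1, the transcription factor itself, was at 22.4 in the AZC + MG132, 40.4 in the CRISPR and 37.1 in the parental table, named likewise.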
